A study of Arabidopsis thaliana with 6 samples.

Results

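The margin of the young wild-type Arabidopsis leaf was compared with the centre of the leaf, across the nuclear genes and by function. The comparison rests on 4 of the 6 libraries of the series. Library 1 and library 2 of WT border came from the green border of young rosette leaves of Col-0, and library 1 and library 2 of WT centre came from the centre of such leaves. All plants were untreated, grew at 18 to 21 °C in light of no more than 90 µE, and were sampled at Boyes stage 1.13. The remaining 2 libraries came from the white leaf border of the flv line (stock salk_139995, a mutant of the plastid RNA editing gene DOT4). They entered the low-count filter, the TMM scaling, the length adjustment and the shared estimate of the spread, but neither side of a fold change below. Total RNA was depleted of rRNA and sequenced as stranded single-end reads on an Ion Proton. The labels do not say that libraries of a group came from separate plants, so the p-values measure the spread between these libraries alone.

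A young leaf does not mature everywhere at once. Cells divide first, then enlarge and build photosynthetic chloroplasts, while the epidermis forms its cuticle, pavement cells and stomata. The margin carries its own regulators, such as WOX1 and the local auxin synthesis genes, and the centre holds the midrib with its xylem and phloem. In tissue pieces such as these, fewer cells of a type and less RNA per cell cannot be told apart.

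The WT border libraries held 28532514 and 25257893 counts, and the WT centre libraries 20448315 and 33214552 counts. Plastid genes took 24.2 and 31.4% of the counts outside rRNA loci in WT border, against 41.9 and 38.5% in WT centre, and the TMM scaling factors, which bring the bulk of genes to the same level, were 1.22 and 1.14 against 0.551 and 0.439. With library totals alone the median log2 fold change of all genes was 1.21, so every change below is relative to the bulk of genes. The fold change also followed the length of the gene model. With TMM alone its median was -0.81 in the shortest 20% of nuclear genes and 0.49 in the longest 20%, and after an adjustment for length it was -0.14 and 0.11. Levels are given as length-adjusted CPM, which are CPM after TMM scaling and this adjustment, and fold changes are WT border over WT centre on the log2 scale with the standard error of the model. Between the libraries of a group the median absolute log2 difference was 0.387 in WT border and 0.712 in WT centre, and between the group means it was 0.717. Library 1 of WT centre stood apart with 70.9% of its reads mapped, against 83.4 to 88.9% in the other wild-type libraries, and with 17.4% of its counts on nuclear models under 300 bases, against 4.24 to 9.81%.

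**Figure D1:**
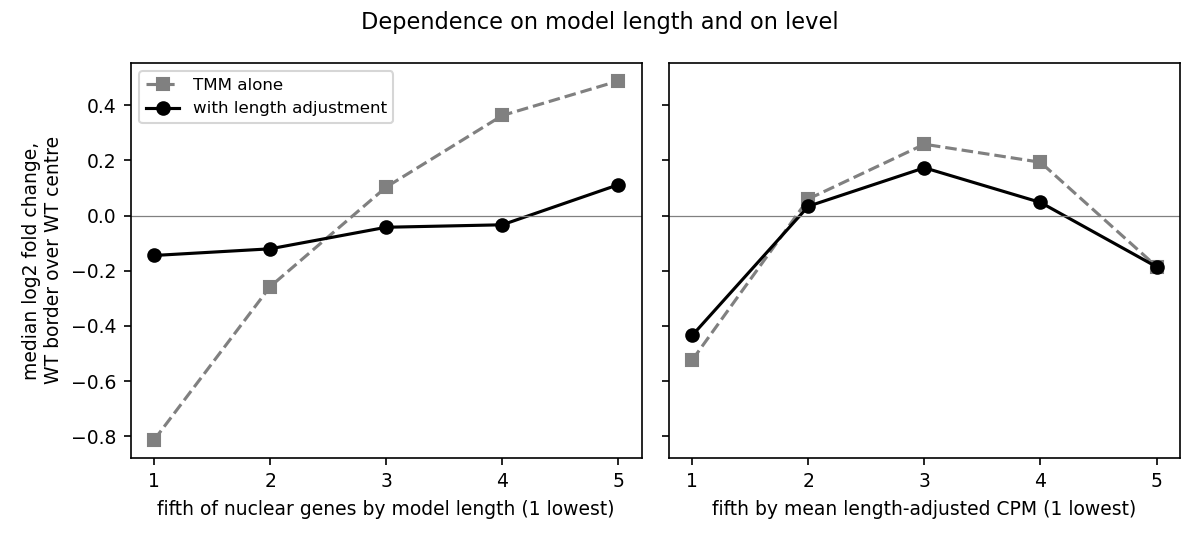
Median log2 fold change, WT border over WT centre, in 5 equal bins of the nuclear genes by model length (left) and by mean length-adjusted CPM (right), with TMM scaling alone (grey squares) and with the length adjustment (black circles). The length trend of -0.81 to 0.49 shrinks to -0.14 to 0.11, and after adjustment the bin with the lowest levels has a median of -0.43.

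Of 21587 nuclear genes tested, 194 rose in WT border (0.899% of the nuclear genes) and 171 fell (0.792%) at an adjusted p under 0.05, and over all genes, organelles included, 1.7% were called in either direction. Both border libraries lay above both centre libraries for 6133 nuclear genes (28.4%) and below them for 5896 (27.3%). The calls sit at the edge of the threshold: their adjusted p ran between 0.0398 and 0.04998, and their absolute log2 fold changes were at least 2.04 upwards and 2.07 downwards. No gene was called in edgeR when either border library, either FLV library or both FLV libraries were left out (2044 genes higher and 1889 lower at an unadjusted p under 0.05 without library 2 of WT border), whereas 1323 and 1461 genes were called without library 2 of WT centre. Every called gene kept its direction in all alternatives in which it was tested, but the selection of calls largely fixed this. No called gene overlapped between the groups, and all had large fold changes.

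Among the 12 largest changes upwards of called protein-coding genes with a mean of at least 5 length-adjusted CPM were genes known from the epidermis, the cuticle and cell walls. PDF1, a cell wall protein of the protoderm, had 59.4 and 20.6 length-adjusted CPM in WT border, against 0.0899 and 0.439 in WT centre (log2 fold change 7.12 ± 0.88), where it rested on 1 and 7 counts. KCS8, a ketoacyl-CoA synthase that elongates very-long-chain fatty acids, had 58.6 and 55.5 CPM in WT border, against 2.19 and 3.85 in WT centre (4.23 ± 0.52). Within WT border PDF1 was higher in library 1, and KCS8 was nearly level. LTL1, a GDSL lipase, had 72.2 and 49.6 CPM in WT border, against 3.83 and 0.850 in WT centre (4.72 ± 0.76). CSLD5, a cellulose synthase-like enzyme that acts on the walls of dividing cells, had 106 and 35.6 CPM in WT border, against 2.79 and 3.32 in WT centre (4.54 ± 0.64). PME5, a pectin methylesterase, had 107 and 22.7 CPM in WT border, against 1.98 and 2.20 in WT centre (4.95 ± 0.78). The selection of these genes required groups that do not overlap, and CSLD5 and PME5 were several times higher in library 1 of WT border than in library 2.

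Other genes among the 12 largest changes upwards are named by their family annotation. AT3G05730, annotated as a defensin-like protein, had 236 and 384 CPM in WT border, against 8.98 and 2.23 in WT centre (log2 fold change 5.80 ± 0.79). AT2G43590, of the chitinase family, had 54.5 and 111 CPM in WT border, against 1.37 and 0.230 in WT centre (6.76 ± 0.89). The neighbouring genes AT3G16660 and AT3G16670, both annotated as Ole e 1 allergen and extensin family proteins, changed by 6.86 ± 0.85 and 6.07 ± 0.80, and reads shared between such copies could not be separated. AT2G33850, annotated as E6-like, changed by 6.38 ± 0.75, and AT1G06360, of the fatty acid desaturase family, by 5.50 ± 0.57. In WT centre AT2G33850 rested on 3 and 4 counts and AT1G06360 on 6 and 4. None of these genes overlapped between the groups, as the rule that chose them requires.

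**Figure D2:**
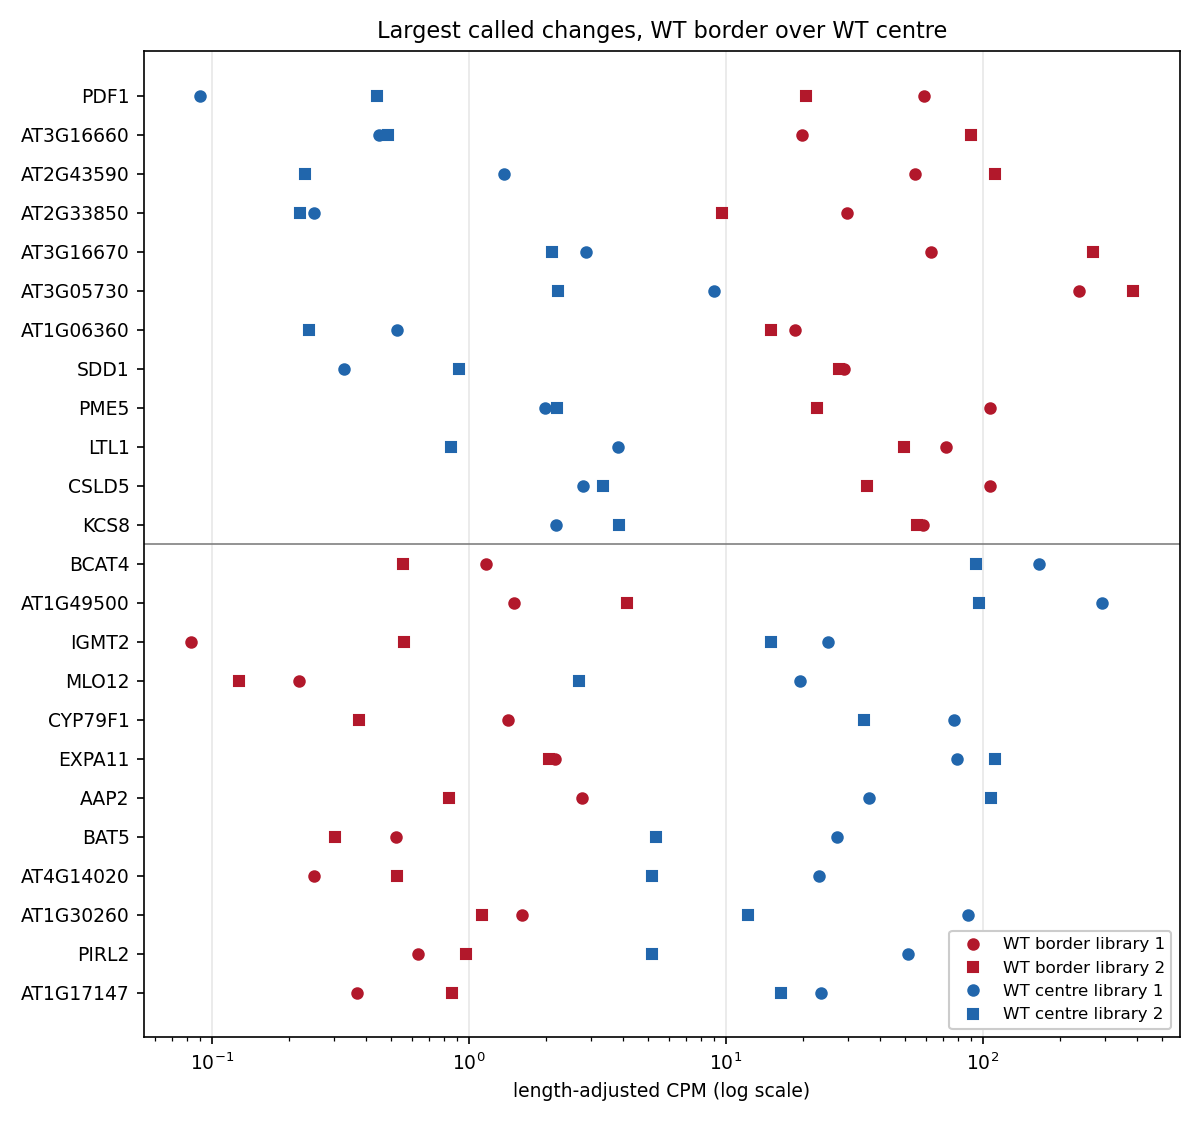
Length-adjusted CPM on a log axis of the 12 called protein-coding genes with the largest change in each direction, WT border in red and WT centre in blue, library 1 as circles and library 2 as squares. The upper genes (PDF1 to KCS8) are higher in both border libraries and the lower genes (BCAT4 to AT1G17147) in both centre libraries, with no overlap.

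Genes that mark the stomatal lineage, in which epidermal cells divide unequally and turn into guard cells, were higher in WT border. Of 11 such markers, 4 rose (0.899% of nuclear genes did), none fell, and 10 lay above in both border libraries (28.4% of nuclear genes did). Their median log2 fold change was 3.66, against -0.05 over all nuclear genes. SDD1, a protease that limits stomatal density, had 28.8 and 27.7 CPM in WT border, against 0.326 and 0.915 in WT centre (5.47 ± 0.57), where it rested on 3 and 10 counts. SPCH, the factor that starts the lineage, had 3.21 and 3.05 CPM in WT border, against 0.258 and 0.233 in WT centre (3.66 ± 0.66). TMM, a receptor of the patterning peptides, had 41.9 and 24.9 CPM in WT border, against 5.26 and 4.42 in WT centre (2.79 ± 0.47). The groups did not overlap for these 3 genes, which were chosen for their small p. Of 10 markers of mature guard cells none was called, and their median was -0.22 (1.06 under library totals and 0.23 without library 2 of WT centre).

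Markers of the leaf margin and of epidermal identity were mixed. WOX1, a homeobox factor of the margin, rose with 2.86 and 1.94 CPM in WT border, against 0.0877 and 0.0602 in WT centre, where it rested on 1 count per library. No fold is given for it, since its group total of 2 counts is under a floor of 3 counts over the group. TAA1, an enzyme of auxin synthesis, had 14.8 and 33.1 CPM in WT border, against 0.469 and 2.51 in WT centre (3.96 ± 0.76). These were the 2 called of 11 tested margin and hydathode markers (0.899% of nuclear genes rose), whose median was 0.84. ATML1, a homeobox factor that specifies epidermal cells, had 46.6 and 47.5 CPM in WT border, against 5.43 and 11.2 in WT centre (2.50 ± 0.49), and it was the 1 called of 12 epidermis markers (median 0.71). The summed level of the epidermis markers nevertheless overlapped, with 580 and 470 CPM in WT border and 453 and 577 CPM in WT centre. HB31, a zinc finger homeobox factor, rose as well (10.5 and 11.7 CPM in WT border, against 0.389 and 0.881 in WT centre). Among all 73 homeobox factors tested 4 rose and 1 fell (0.899 and 0.792% of nuclear genes did).

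Many genes of the cell cycle had positive fold changes, and few of them passed the threshold. Of 27 cyclins, 22 had a positive fold change and 17 lay above in both border libraries (28.4% of nuclear genes did), with a median of 1.06, and 1 rose (0.899% of nuclear genes did). This was CYCB1;4, a mitotic cyclin, with 12.6 and 4.49 CPM in WT border, against 0.294 and 0.297 in WT centre (4.83 ± 0.72), where it rested on 3 and 4 counts. CYCA1;1 had 6.06 and 3.06 CPM in WT border, against 0.588 and 0.746 in WT centre, with an adjusted p of 0.0618. Of 49 DNA replication factors, 38 had a positive fold change, 1 rose (0.899% of nuclear genes did), and the median was 1.05. Their summed level overlapped, with 293 and 299.7 CPM in WT border and 325 and 132 CPM in WT centre. Much of the sum in library 1 of WT centre came from AT5G52800, annotated as a DNA primase and not called. It had 1.12 and 1.47 CPM in WT border, against 146 and 6.07 in WT centre. The called member was PCNA2, a sliding clamp of DNA polymerase, at 12.2 and 5.59 CPM in WT border, against 1.39 and 1.01 in WT centre (2.90 ± 0.57). CYCB1;4, CYCA1;1 and PCNA2 did not overlap between the groups, and in WT border library 1 exceeded library 2 for each.

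No gene of the tubulin, kinesin and core histone lists was called. The median was 1.08 for 16 tubulins and 0.23 for 30 kinesins, and the summed level of the tubulins overlapped, with 2785 and 1533 CPM in WT border and 945 and 2203 CPM in WT centre. TUB8, a beta-tubulin, had 45.2 and 41.1 CPM in WT border, against 12.9 and 13.2 in WT centre (1.73 ± 0.41, adjusted p = 0.0600). KINESIN-12B, a motor of the phragmoplast, had 9.67 and 5.57 CPM in WT border, against 1.61 and 1.58 in WT centre (2.26 ± 0.51, adjusted p = 0.0568). HTB2, a histone H2B, had 36.5 and 44.2 CPM in WT border, against 11.2 and 2.64 in WT centre (2.55 ± 0.65, adjusted p = 0.0682). The median of the 42 core histones was 0.42 with the length adjustment and -0.21 without it, so no direction is given for these short genes.

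Genes of the cytosolic translation machinery had mostly positive fold changes. Of 126 genes annotated as cytosolic ribosomal proteins, 107 had a positive fold change, 92 lay above in both border libraries (against 28.4% of nuclear genes) and 5 below in both. Of these 126 genes 9 rose (0.899% of nuclear genes did) and none fell, and the median was 1.18 (0.69 without the length adjustment). The list does not hold every ribosomal protein gene, and RPL5B (3.12), outside it, was called higher too. AT3G25520, encoding ribosomal protein L5, had 214.8 and 235.1 CPM in WT border, against 23.3 and 23.3 in WT centre (3.27 ± 0.46). AT1G43170, annotated as ribosomal protein 1, had 555 and 506 CPM in WT border, against 59.9 and 75.4 in WT centre (2.97 ± 0.51). AT1G08360, of the L1p/L10e family, had 124 and 113 CPM in WT border, against 21.86 and 12.99 in WT centre (2.76 ± 0.47). Library values were close within each group for AT3G25520, AT1G43170 and AT1G08360. Summed over the 126 genes, levels came to 18059 and 16938 CPM in WT border and to 9522 and 8249 CPM in WT centre.

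Factors that build and serve ribosomes had mostly positive fold changes too. Of 51 ribosome biogenesis factors, 40 had a positive fold change, 2 rose (0.899% of nuclear genes did), and the median was 1.20. NRPA1, the largest subunit of the RNA polymerase that transcribes rRNA genes, had 9.33 and 15.0 CPM in WT border, against 0.589 and 1.60 in WT centre (3.46 ± 0.62). AT1G50920, a nucleolar GTP-binding protein, had 42.6 and 106 CPM in WT border, against 10.0 and 6.84 in WT centre (3.14 ± 0.57). Aminoacyl-tRNA synthetases, which charge tRNAs, had a median of 1.12 over 47 genes, and the leucyl enzyme AT1G09620 rose (105 and 148 CPM in WT border, against 22.13 and 17.99 in WT centre). DEAD-box RNA helicases had a median of 0.98 over 69 genes, and 2 rose (0.899% of nuclear genes did). Of these AT2G47250 had 17.1 and 19.6 CPM in WT border, against 3.29 and 3.09 in WT centre (2.53 ± 0.45).

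Promoters of called ribosomal protein genes are shown because site II hexamers were more common in that list than among all promoters. Site II was 1 of 6 motifs searched on both strands, and it was chosen for printing after the shares were seen. Site II hexamers, TGGGCC or TGGGCT on either strand, are known from promoters of ribosomal protein and cell cycle genes. They were searched in the 250 bases before the annotated gene start in the TAIR10.1 assembly of RefSeq. Of 160 promoters of genes called lower in WT border 13 held one (8.13%), of 187 promoters of genes called higher 61 (32.6%), and of all 19706 promoters of tested nuclear protein-coding genes 4433 (22.5%). The share was 56.3% in 126 cytosolic ribosomal protein promoters, 45.1% in 51 ribosome biogenesis promoters and 46.9% in 49 DNA replication promoters. Of the 9 called genes of the cytosolic ribosomal protein list, 8 held a hexamer. Outside the list, the called gene RPL5B held 4 and the called gene RPL3P none. The other motifs were in the following shares of promoters of genes called higher, of genes called lower and of all genes. The L1 box (TAAATGCA or TAAATGTA) was in 3.21, 3.13 and 4.54%, the AACGG core (CAACGG or TAACGG) in 14.4, 10.0 and 11.54%, and the telo box (AAACCCTAA) in 2.14, 0 and 2.18%. The W box (TTGACC or TTGACT) was in 27.3, 31.3 and 28.01%, and the G box (CACGTG) in 2.67, 7.5 and 7.23%. The 6 windows shown contain no other annotated gene, run 5′ to 3′ on the strand of the gene, and have the hexamers in capitals. The first 4 are called genes of the cytosolic ribosomal protein list with 2 to 4 hexamers. RPL24A is the called gene of that list with none, and BCAT4 is the first of the 12 named falls.
AT1G43170, chr1:16266303-16266552, plus strand: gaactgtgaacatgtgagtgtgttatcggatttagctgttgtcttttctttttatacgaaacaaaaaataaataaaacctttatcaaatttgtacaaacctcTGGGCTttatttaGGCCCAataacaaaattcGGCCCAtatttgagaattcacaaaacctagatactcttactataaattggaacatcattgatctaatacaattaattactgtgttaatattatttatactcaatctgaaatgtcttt
AT4G02230, chr4:980699-980948, minus strand: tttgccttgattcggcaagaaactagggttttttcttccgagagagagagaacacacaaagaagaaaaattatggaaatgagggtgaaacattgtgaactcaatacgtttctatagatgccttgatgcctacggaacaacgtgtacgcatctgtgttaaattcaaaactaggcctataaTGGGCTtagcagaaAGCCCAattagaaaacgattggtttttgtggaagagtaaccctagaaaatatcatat
AT5G28060, chr5:10070900-10071149, minus strand: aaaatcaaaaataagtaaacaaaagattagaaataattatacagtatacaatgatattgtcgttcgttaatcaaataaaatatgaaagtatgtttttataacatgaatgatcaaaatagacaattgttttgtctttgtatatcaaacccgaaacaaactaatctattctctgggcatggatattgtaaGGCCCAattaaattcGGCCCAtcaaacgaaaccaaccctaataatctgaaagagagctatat
AT5G56710, chr5:22944994-22945243, minus strand: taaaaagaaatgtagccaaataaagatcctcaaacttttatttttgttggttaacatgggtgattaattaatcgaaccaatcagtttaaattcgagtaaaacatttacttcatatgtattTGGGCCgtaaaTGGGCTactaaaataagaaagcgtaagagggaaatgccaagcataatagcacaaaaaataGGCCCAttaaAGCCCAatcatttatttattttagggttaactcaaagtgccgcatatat
RPL24A, chr2:15352014-15352263, minus strand: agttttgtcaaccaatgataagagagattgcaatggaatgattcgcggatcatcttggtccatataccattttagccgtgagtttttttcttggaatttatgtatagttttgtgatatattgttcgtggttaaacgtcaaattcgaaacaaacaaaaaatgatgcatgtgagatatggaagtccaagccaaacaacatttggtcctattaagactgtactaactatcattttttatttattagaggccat
BCAT4, chr3:6849583-6849832, minus strand: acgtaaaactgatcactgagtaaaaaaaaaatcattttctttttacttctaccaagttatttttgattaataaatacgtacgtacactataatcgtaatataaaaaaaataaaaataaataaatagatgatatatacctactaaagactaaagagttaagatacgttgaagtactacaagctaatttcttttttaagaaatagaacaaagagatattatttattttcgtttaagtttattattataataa
In AT5G56710 the hexamers began between 130 and 49 bases before the gene start. A match of letters is a description of the sequence and says nothing of the binding of a factor.

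**Figure D3:**
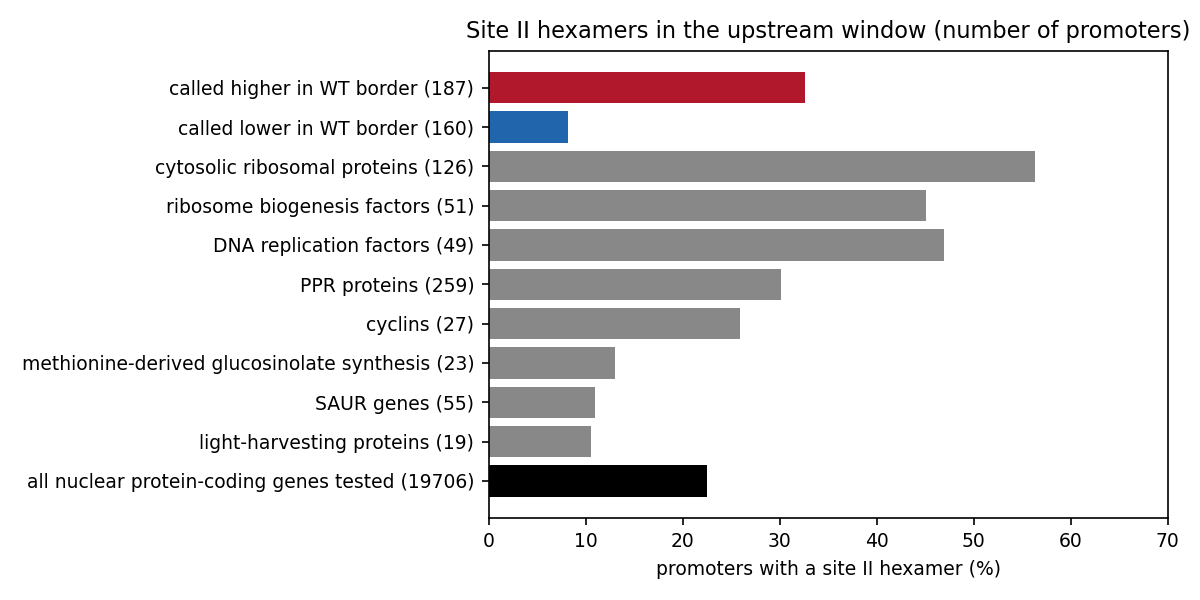
Share of promoters with at least 1 site II hexamer (TGGGCC or TGGGCT, either strand, 250 bases before the gene start), by gene list with the number of promoters. Genes called higher in WT border reach 32.6%, genes called lower 8.13% and cytosolic ribosomal protein genes 56.3%, beside 22.5% of all promoters (black).

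Nuclear genes for the build-up of plastids had mostly positive fold changes. The plastid transcription machinery comprises the sigma factors, the phage-type polymerase and the proteins bound to the plastid-encoded polymerase. Of its 28 members, 24 had a positive fold change and 22 lay above in both border libraries (28.4% of nuclear genes did). Of the 28, 3 rose (0.899% of nuclear genes did) and none fell, with a median of 1.24. FLN1, a fructokinase-like protein of that complex, had 55.6 and 36.1 CPM in WT border, against 1.36 and 3.98 in WT centre (4.08 ± 0.62). FSD3, a plastid superoxide dismutase bound to the same complex, had 47.5 and 32.2 CPM in WT border, against 3.53 and 6.83 in WT centre (2.94 ± 0.50). SIG2, a sigma factor, had 35.5 and 31.4 CPM in WT border, against 5.66 and 5.12 in WT centre (2.63 ± 0.48). The groups did not overlap for these genes, which were chosen for their small p.

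Among genes for plastid division and import, 19 of 23 had a positive fold change and 2 rose (0.899% of nuclear genes did). TIC110, a channel component of the inner envelope, had 193 and 156 CPM in WT border, against 20.6 and 26.5 in WT centre (2.89 ± 0.47), and FTSZ1-1, which forms the division ring, had 64.8 and 53.5 CPM in WT border, against 13.8 and 10.6 in WT centre (2.28 ± 0.43). Pentatricopeptide repeat (PPR) proteins, which process and edit organelle transcripts, had a positive fold change in 184 of 259 genes, with a median of 0.64, and the 3 that rose are a share close to the 0.899% of all nuclear genes. The called members were AT5G46580 (2.65 ± 0.50), AT3G61520 (2.96 ± 0.56) and PNM1 (2.12 ± 0.40). The 15 genes annotated for plastid ribosomal proteins had no call and a median of 0.15, which was -0.35 without the length adjustment, so no direction is given for them.

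Genes of photosynthesis itself had negative fold changes that did not hold up against the spread between libraries. All 19 light-harvesting genes had a negative fold change (median -1.36), yet none was called, in none did the groups separate, and under library totals the median was 0.014. LHCB6, an antenna protein of photosystem II, had 1373 and 4607 CPM in WT border, against 830 and 18400 CPM in WT centre (-1.69 ± 1.29, adjusted p = 0.420). LHCA2, of photosystem I, had 1610 and 2561 CPM in WT border, against 1524 and 11090 CPM in WT centre (-1.60 ± 0.96, adjusted p = 0.310). Library 2 was above library 1 for 18 of the 19 genes in WT border and for all 19 in WT centre. Between the libraries numbered 1 only 6 of the genes were lower in WT border, between those numbered 2 all 19 were, and without library 2 of WT centre the median was 1.93. Paralogs such as the LHCB1 genes share near-identical sequence, and their reads may be split between copies.

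Other lists of photosynthesis genes had smaller negative medians. Of 34 nuclear photosystem and electron transport genes 30 had a negative fold change (median -0.96, and 0.35 under library totals), and of 17 Calvin-Benson cycle genes 13 had (median -0.79, and 0.54 under library totals). None of them was called, and 8 of the 17 lay below in both border libraries (27.3% of nuclear genes did). GAPB, a glyceraldehyde-3-phosphate dehydrogenase of the cycle, had 1345 and 950 CPM in WT border, against 6902 and 3314 CPM in WT centre (-2.15 ± 0.66, adjusted p = 0.0925). PGK1, a phosphoglycerate kinase, had 1184 and 1024 CPM in WT border, against 2779 and 4839 CPM in WT centre (-1.79 ± 0.60, adjusted p = 0.111). Without library 2 of WT centre the medians were 0.12 and -0.21.

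**Figure D4:**
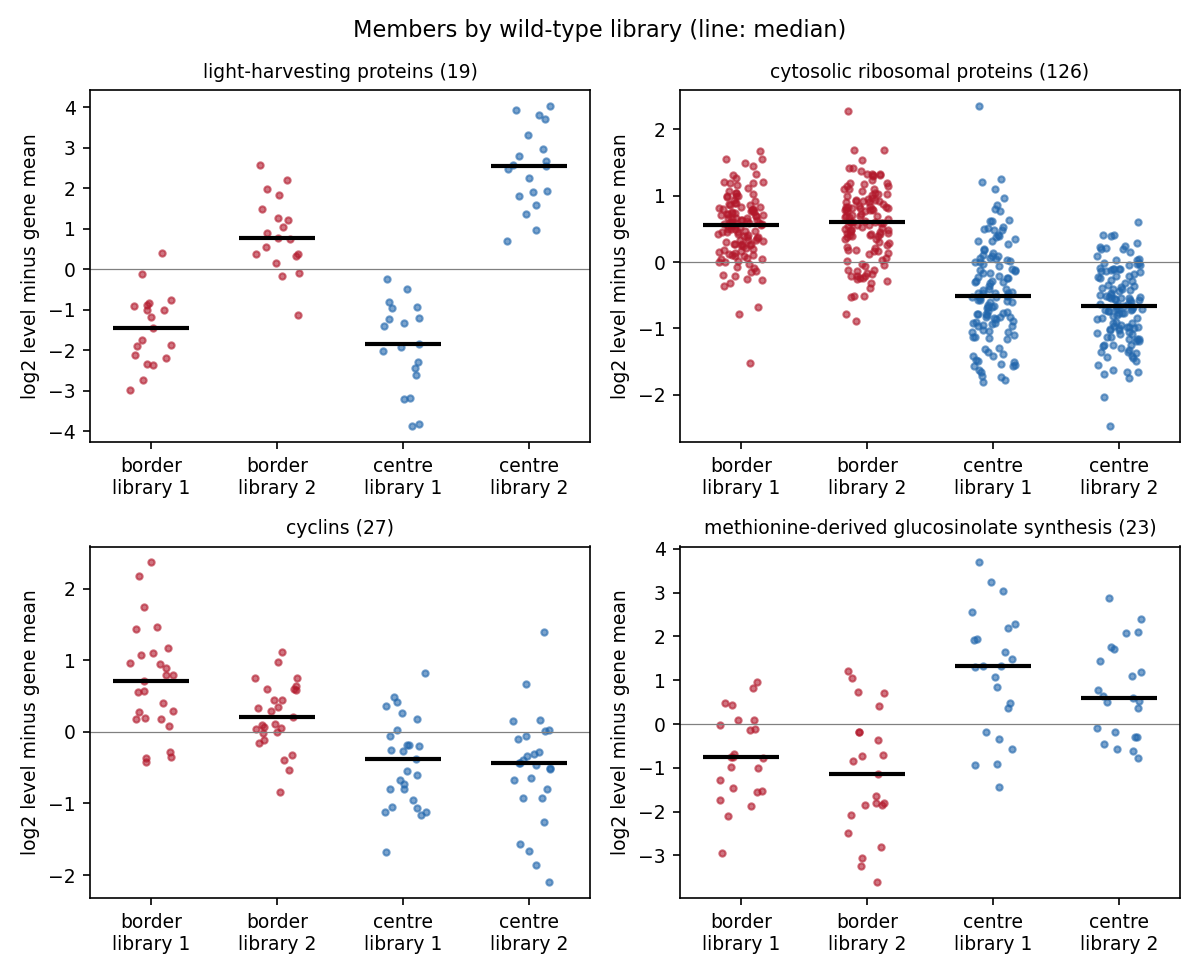
Each point is a member of the named list (number in brackets), as log2(length-adjusted CPM + 0.5) minus the mean of that gene over the 4 wild-type libraries, and the black line is the median. Light-harvesting genes are split by library number within both groups, while the medians of ribosomal proteins and cyclins are higher in both border libraries and that of glucosinolate genes in both centre libraries.

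The 12 largest changes downwards, by the same minimum level, included genes for the synthesis of methionine-derived glucosinolates, sulfur-rich defence compounds of the cabbage family. Of 23 tested genes of this pathway 9 fell (0.792% of nuclear genes did) and none rose. In both border libraries 14 lay below (27.3% of nuclear genes did), and the median was -2.62. BCAT4, which starts the chain elongation of methionine, had 1.17 and 0.557 CPM in WT border, against 166 and 94.4 CPM in WT centre (-7.22 ± 0.90). IPMI1, an isomerase subunit of the elongation cycle, had 2.99 and 1.79 CPM in WT border, against 62.0 and 54.7 in WT centre (-4.60 ± 0.54). BAT5, which carries the keto acids into the plastid, had 0.522 and 0.302 CPM in WT border, against 27.2 and 5.34 in WT centre (-5.28 ± 0.88). The 2 libraries of a group differed most for BAT5 in WT centre.

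Later steps of the same pathway fell as well. CYP79F1, which converts the elongated methionine to aldoximes, had 1.42 and 0.374 CPM in WT border, against 77.2 and 34.4 in WT centre (-5.94 ± 0.85), and its reads may include those of the near-identical neighbour CYP79F2. FMO GS-OX3, which oxidises the side chain, had 2.03 and 1.64 CPM in WT border, against 27.6 and 19.7 in WT centre (-3.68 ± 0.47). The 5 members with a positive fold change were MAML-4, IMD3, BCAT3, FMO GS-OX2 and FMO GS-OX4, of which MAML-4 and IMD3 are known from leucine synthesis. The median of 14 indole glucosinolate genes was -1.50 (-1.01 without library 1 of WT centre and -0.29 under library totals). Of these genes 3 fell (0.792% of nuclear genes did). These were MYB51, a regulator of the indole branch (0.932 and 2.24 CPM in WT border, against 88.5 and 14.2 in WT centre), and the adjacent methyltransferases IGMT2 (-5.99 ± 1.10) and IGMT3 (-4.37 ± 0.74), whose reads cannot be separated with certainty. In WT border IGMT2 rested on 3 and 16 counts.

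Genes of amino acid transport had mostly negative fold changes relative to the bulk of genes, but not under library totals, where their median was 0.16. Of 76 amino acid permeases and transporters 59 had a negative fold change and 44 lay below in both border libraries (27.3% of nuclear genes did). Of the 76, 6 fell (0.792% of nuclear genes did) and none rose, with a median of -1.12 (-0.63 without library 2 of WT centre). AAP2, an amino acid permease of the vasculature, had 2.77 and 0.837 CPM in WT border, against 36.1 and 108 CPM in WT centre (-5.31 ± 0.80). AAP4 had 1.94 and 1.34 CPM in WT border, against 24.5 and 59.5 in WT centre (-4.67 ± 0.61). UMAMIT17, an exporter family member, had 0.249 and 0.0343 CPM in WT border, against 8.14 and 7.27 in WT centre (-5.67 ± 0.84), and its border values rested on 9 and 1 counts. SULTR2;1, a sulfate transporter of the vasculature and 1 of 4 bundle sheath markers, fell too, with 3.71 and 5.50 CPM in WT border, against 35.0 and 22.6 in WT centre (-2.65 ± 0.47). The bundle sheath markers were mixed, with 2 positive and 2 negative fold changes and a median of -0.30.

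Among genes of cell enlargement, 1 member of each list below fell in WT border (0.792% of nuclear genes did). EXPA11, an expansin that loosens walls, had 2.16 and 2.06 CPM in WT border, against 79.6 and 112 CPM in WT centre (-5.50 ± 0.61). It was the 1 called of 19 expansins, whose median was -0.89 (0.44 under library totals and -0.13 without library 2 of WT centre). XTH7, a xyloglucan endotransglucosylase, had 16.4 and 11.7 CPM in WT border, against 174 and 415 CPM in WT centre (-4.39 ± 0.62), and was the 1 called of 25 such genes (median -1.12, 0.25 under library totals and -0.38 without library 2 of WT centre). XTH16 went the other way, with 13.03 and 10.47 CPM in WT border, against 2.13 and 0.519 in WT centre (3.19 ± 0.64, adjusted p = 0.0508). SAUR genes, auxin-responsive genes tied to cell expansion, had a negative fold change in 47 of 55. Their median was -1.37 (-0.67 without library 2 of WT centre and -0.17 under library totals). The called member AT4G34750 had 12.2 and 17.2 CPM in WT border, against 104 and 87.2 in WT centre (-2.71 ± 0.46).

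Single genes of abscisic acid and stress also fell. NCED3, an enzyme of abscisic acid synthesis, had 4.69 and 7.62 CPM in WT border, against 103 and 98.0 in WT centre (-4.03 ± 0.60), although the 45 genes of that hormone had a median of -0.13 (1.12 under library totals). NAM (AT1G52880), a NAC factor, had 0.859 and 1.31 CPM in WT border, against 13.8 and 20.2 in WT centre (-3.97 ± 0.50). RD26, a NAC factor induced by drought, had 2.35 and 1.69 CPM in WT border, against 25.3 and 13.3 in WT centre (-3.25 ± 0.54). They were the 2 called of 64 NAC factors (0.792% of nuclear genes fell). The NAC median was -0.42 (0.85 under library totals and 0.07 without library 1 of WT centre).

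Of 20 VQ motif proteins, cofactors of WRKY factors, 3 fell (0.792% of nuclear genes did) and none rose. Their median was -1.67 (-0.86 without library 1 of WT centre and -0.46 under library totals). Of these VQ genes AT1G17147 had 0.369 and 0.861 CPM in WT border, against 23.6 and 16.4 in WT centre (-5.04 ± 0.58), and AT3G22160 had 1.07 and 2.03 CPM in WT border, against 13.6 and 9.96 in WT centre (-2.93 ± 0.52). The 10 tested defensin-like genes had a median of -2.55 (-1.72 without library 2 of WT centre and -0.72 with the wild-type libraries only), although AT3G05730 of that list rose. MLO12, a membrane protein needed by powdery mildew, had 0.219 and 0.127 CPM in WT border, against 19.5 and 2.70 in WT centre (-5.96 ± 1.05), and its border values rested on 8 and 4 counts. GSTF2, a glutathione transferase, had 12.3 and 30.9 CPM in WT border, against 400 and 168 CPM in WT centre (-3.72 ± 0.67). Cysteine-rich receptor kinases had a median of -1.05 over 32 genes (0.15 under library totals), and CRK23 was the 1 called (-4.07 ± 0.79). WRKY factors (52 genes, median -0.73, and 0.49 under library totals) and NBS-LRR resistance genes (137 genes, median -0.45, and 0.81 under library totals) had no call. For several of these genes library 1 of WT centre was well above library 2, as with MYB51 and MLO12, and without that library the median was -0.25 for the WRKY factors and -0.06 for the NBS-LRR genes.

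Further genes among the 12 largest falls were AT1G49500, with 1.498 and 4.135 CPM in WT border, against 292 and 96.5 CPM in WT centre (-6.11 ± 0.81), and the RALF family peptide gene AT4G14020 (-5.20 ± 0.85). AT1G30260 had 1.61 and 1.13 CPM in WT border, against 87.3 and 12.2 in WT centre (-5.17 ± 0.98). PIRL2, a leucine-rich repeat protein, had 0.633 and 0.980 CPM in WT border, against 51.1 and 5.16 in WT centre (-5.12 ± 1.01). The groups did not overlap, but within WT centre library 1 was several times above library 2 for AT1G30260 and PIRL2. GASA1, a gibberellin-regulated peptide gene, had 11.9 and 8.31 CPM in WT border, against 124 and 96.9 in WT centre (-3.45 ± 0.47). MT1C, 1 of 5 tested metallothioneins and the 1 called, had 0.352 and 1.04 CPM in WT border, against 8.26 and 14.4 in WT centre (-4.05 ± 0.64).

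Several families split within themselves. Over all nuclear genes 0.899% rose and 0.792% fell. Of 45 MATE transporters AT5G17700 rose (9.52 and 11.6 CPM in WT border, against 0.746 and 1.06 in WT centre) and AT3G26590 fell (1.53 and 2.03 CPM in WT border, against 17.5 and 16.3 in WT centre), with a median of -0.96 (0.34 under library totals). Of 20 ketoacyl-CoA synthases KCS8 and KCS16 (3.70 ± 0.50) rose, while KCS6, the main enzyme of leaf wax elongation, had 51.5 and 57.7 CPM in WT border, against 162 and 232 CPM in WT centre (-1.85 ± 0.45, adjusted p = 0.0633). Of 20 TCP factors, regulators of leaf growth, AT1G35560 fell (6.65 and 6.49 CPM in WT border, against 24.6 and 42.5 in WT centre), and the related TCP14 had 21.3 and 28.4 CPM in WT border, against 109 and 112 CPM in WT centre (-2.15 ± 0.43, adjusted p = 0.0508). ABC transporters had a median of 0.16 over 114 genes with 3 called higher, among them ABCG5, a transporter of the cuticle (13.04 and 13.25 CPM in WT border, against 0.749 and 1.24 in WT centre).

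**Figure D5:**
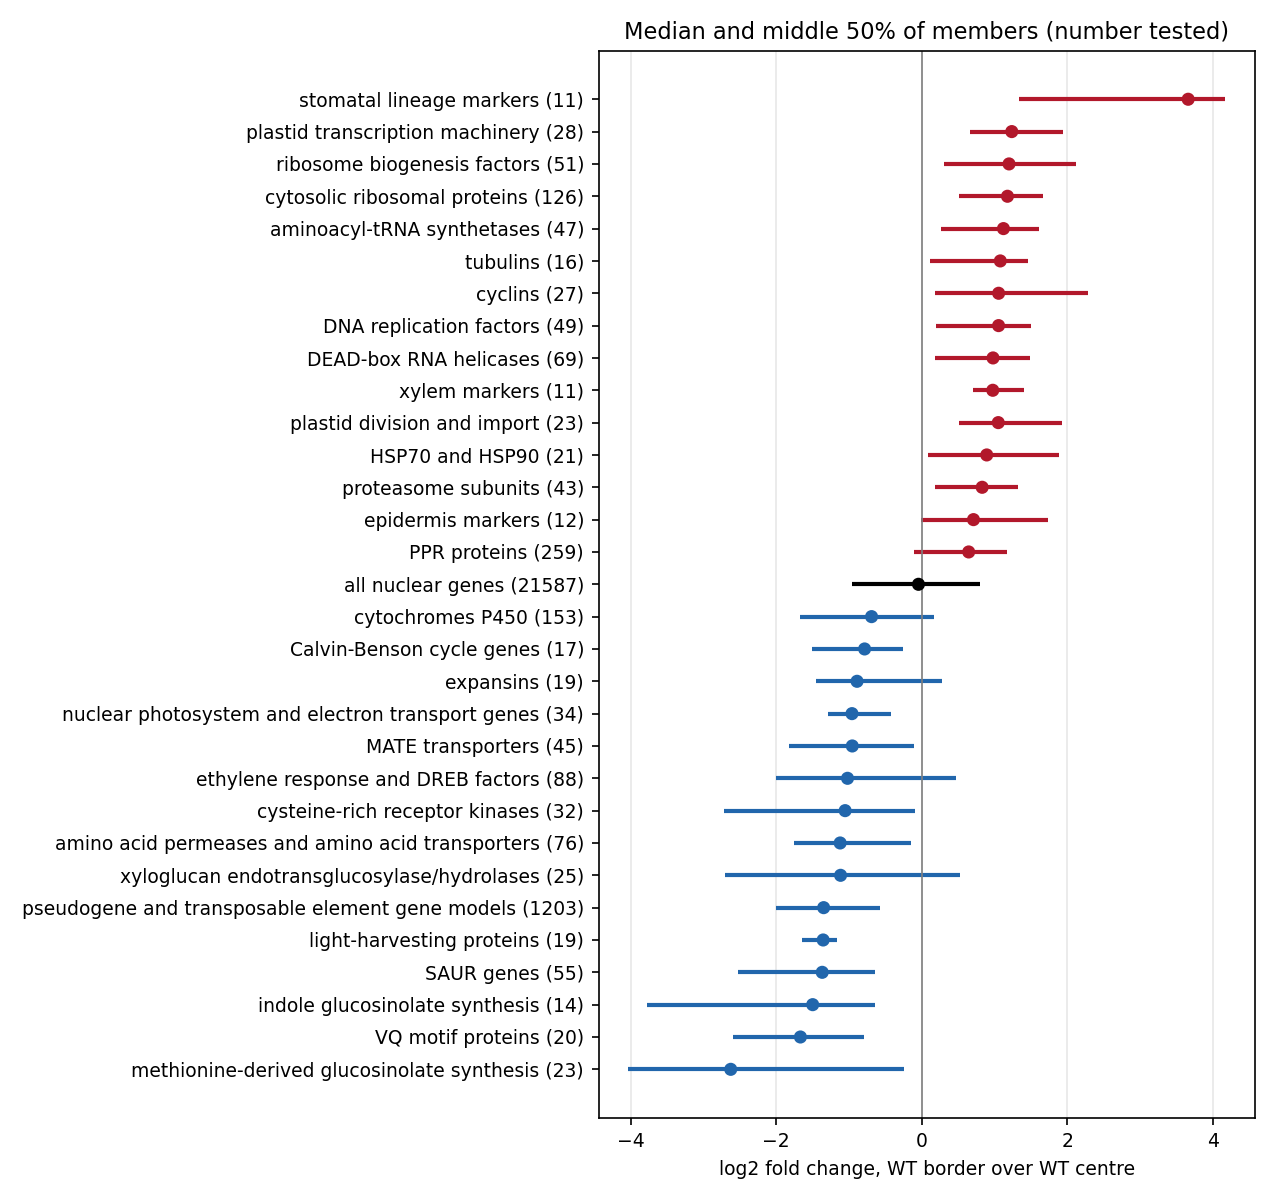
Median (point) and middle 50% (line) of the log2 fold changes of the tested members of 30 lists and of all nuclear genes (black), WT border over WT centre, with the number of members in brackets. Cyclins (1.06), cytosolic ribosomal proteins (1.18) and plastid transcription (1.24) lie high, and methionine-derived glucosinolates (-2.62), VQ (-1.67) and SAUR genes (-1.37) low, beside a median of -0.05 for all nuclear genes.

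Cell type markers were set beside the tissue labels, and the mesophyll, xylem and phloem lists did not bear the labels out. Mesophyll markers were abundant in both tissues, with a summed level of 25600 and 44768 CPM in WT border and of 31671 and 128240 CPM in WT centre, and the 7 genes overlapped between the groups in all but 1 case. Xylem markers summed to 64.6 and 66.3 CPM in WT border, against 41.2 and 26.8 in WT centre, and 10 of 11 had a positive fold change, with no call. They were thus higher in the border, although the centre holds the midrib. Phloem markers summed to 189 and 381 CPM in WT border and to 382 and 328 CPM in WT centre. None of the 4 shoot meristem markers passed the filter, with 8 to 14 counts in all per library, and of 5 root markers 1 did. The medians of the xylem and phloem markers were 0.97 and 0.41, and that of the phloem markers was -0.14 with the wild-type libraries only. The part of cell type shares in the changes above was not tested.

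Gene models of pseudogenes and transposable elements had mostly negative fold changes. Of 1203 tested models 1006 had a negative fold change and 772 lay below in both border libraries (27.3% of nuclear genes did). The median was -1.35, against 0.02 for nuclear protein-coding genes. Of the models 6 rose and 7 fell, smaller shares than the 0.899 and 0.792% of all nuclear genes. Their summed level was 6119 and 5987 CPM in WT border, against 29213 and 10239 CPM in WT centre, and under library totals their median was -0.09. Small nucleolar RNA loci had a median of 0.14 with the length adjustment and -2.14 without it, so no direction is given for them.

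DOT4 (AT4G18750), the gene disrupted in the flv line, was near the limit of detection in wild type, with 0.506 and 1.53 CPM in WT border, against 0.537 and 0.559 CPM in WT centre (0.88 ± 0.68, adjusted p = 0.422). The plastid gene rpoC1 (ATCG00180), whose transcript carries an editing site of DOT4, had 102 and 180 CPM in WT border and 339 and 106 CPM in WT centre (-0.66 ± 0.72, adjusted p = 0.577). Both genes overlapped between the tissues.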

How the data were processed

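The deposited files hold raw counts of mapped reads per gene model, 1 table per library, with the length of each model, written by the program sam2pkm per the file headers. The submitters' processing notes name TAIR10 as the build; the aligner, the handling of multi-mapping reads and the use of strand are not given in the sources used here. Counts overlapping on opposite strands may therefore be mixed.

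Counts of the models were used as deposited, after 15 rRNA loci were dropped. With edgeR 4.0.16, low genes were removed by filterByExpr (21852 genes stayed), and the rest were scaled by TMM, and fitted with the quasi-likelihood test (glmQLFit, robust) with 3 group means over all 6 libraries. The spread was estimated on 3 residual degrees of freedom, and the common coefficient of biological variation came to 0.444. A loess curve (span 0.5) on log2 model length, per library and centred on 0, was added to the offset. It was drawn through log2 CPM relative to the mean of each gene over all 6 libraries. Tests were two-sided, with Benjamini-Hochberg adjustment over all genes, and an adjusted p under 0.05 is a call. Between 2 and 2 libraries the smallest exact permutation p is 0.333. The steps were also run on simulated counts with the same coefficient of variation for every gene. Such a run cannot show whether the calls in these data are reliable.

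Genes were grouped by symbol and product in the TAIR10.1 annotation of RefSeq (32835 of 33602 models matched, 37.5% of those with a transcript at exactly its length) into 66 families, 6 RNA classes and 11 marker lists. The members and lists were chosen with earlier results of these data known, and 49 genes were taken out of lists when their annotation showed another function. Grouping by symbol and product left some genes of a family out of its list. Named genes are the 12 called protein-coding genes with the largest change in each direction (mean of at least 5 length-adjusted CPM, no overlap), up to 3 members per list by smallest p (mean of at least 1), DOT4 and rpoC1. The promoters and motifs were chosen after values were seen. Alternatives covered the length adjustment, scaling, filter, libraries, library number as a block, DESeq2 1.42.0 and limma-voom (limma 3.58.1), in R 4.3.3.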

Additional observations from a re-analysis of the deposited data

How the results depend on the processing

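The number of calls depended strongly on the settings. Called genes, higher and lower, numbered 200 and 171 in all; 683 and 656 with no length adjustment, 86 and 78 with the trend taken from protein-coding genes, 58 and 57 with GC content added, 117 and 145 with RLE scaling, 7086 and 234 with library totals, 810 and 441 with no filter, 1653 and 1792 in DESeq2 and 104 and 126 in limma-voom. With only the 4 wild-type libraries 0 and 0 were called (1881 and 2594 at an unadjusted p under 0.05). Leaving out 1 library gave 0 to 1323 higher and 0 to 1461 lower. All 371 calls kept their sign wherever they were tested, which is no separate support for them. None of them overlapped between the groups, and their absolute log2 fold changes were at least 2.04, so the sign was largely fixed by selection.

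Median log2 fold changes of lists moved as follows. Without length adjustment they were 0.69 for ribosomal proteins and 0.95 for PPR proteins, and with the protein-coding trend and the GC term 1.31 and 1.08 for ribosomal proteins. With library totals they were 2.33 for cyclins, 2.28 for DNA replication, 2.42 for ribosomal proteins, 2.48 for ribosome biogenesis, 1.89 for PPR proteins, 2.50 for plastid transcription, 4.91 for the stomatal lineage, -1.37 for methionine-derived glucosinolates and -0.17 for SAUR genes, and reversed to 0.014 for light-harvesting genes, 0.16 for amino acid transporters and 0.25 for XTH genes. Cyclins were at 1.38 with no filter, 1.42 with the wild-type libraries only and 1.58 in limma-voom. Leaving out 1 library moved the medians between 1.09 and 1.63 for cyclins, 0.96 and 1.23 for DNA replication, 1.12 and 1.31 for ribosomal proteins, 0.95 and 1.66 for ribosome biogenesis, 0.41 and 0.85 for PPR proteins, 1.15 and 1.39 for plastid transcription, 3.34 and 3.76 for the stomatal lineage, -2.99 and -2.06 for methionine-derived glucosinolates, -1.40 and -0.63 for amino acid transporters, -1.90 and -0.67 for SAUR genes, -1.31 and -0.38 for XTH genes, and -3.08 and 1.93 for light-harvesting genes. Single genes ranged from -2.38 to 0.53 for LHCA2, -3.43 to 2.44 for LHCB4.2, -2.76 to 1.93 for LHCB6 and -1.19 to 0.48 for rpoC1. Without library 2 of WT centre LHCA2 reversed to 0.53, LHCB4.2 to 2.44 and LHCB6 to 1.93, and rpoC1 (ATCG00180) reversed to 0.50 with library totals and 0.48 without library 1 of WT centre. The causes were not tested.

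The library numbers are shared between groups, but no label says that they pair samples, and with 2 numbers the correlations could not settle it. The differences of library 2 minus library 1 correlated over 17115 genes at 0.146 between WT border and WT centre, 0.438 between FLV border and WT border, and 0.103 between FLV border and WT centre. With the number as a block 268 genes were called higher and 267 lower, of which 188 and 159 were among the calls without it.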

Other observations

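Protein folding and turnover were not part of the comparisons above. Of 21 HSP70 and HSP90 chaperones 17 had a positive fold change, with a median of 0.89 (1.99 without library 1 and 0.63 without library 2 of WT centre). Among them 1 rose (0.899% of nuclear genes did). This was mtHsc70-1, a mitochondrial chaperone, with 122 and 136 CPM in WT border, against 27.2 and 13.5 in WT centre (log2 fold change 2.66 ± 0.52). The list of 21 is incomplete, and MTHSC70-2 (2.74) and Hsp81.4 (2.8), outside it, were called higher too. Of 43 proteasome subunits 34 had a positive fold change and 24 lay above in both border libraries (28.4% of nuclear genes did), with no call and a median of 0.83. Splicing factors had a median of 0.51 over 52 genes, without a call. Cytochromes P450 had a negative fold change in 107 of 153 genes, and 3 fell (0.792% of nuclear genes did). Their median was -0.69, and 0.54 under library totals.

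Genes called higher in WT border had a median model length of 1695 bases, genes called lower 1244 bases, and all nuclear genes tested 1536 bases. Their median GC content was 42.6%, 40.6% and 41.7% in the same order. Of the 6 organelle genes that were called, all were mitochondrial and higher in WT border. They were 6 of 140 mitochondrial genes tested, beside 1.7% of all genes called in either direction. The median of the mitochondrial genes was 0.56 with the length adjustment and -0.33 without it, so no direction is given for them as a set.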
